A study of Mus musculus with 12 samples.

Results

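Mouse embryonic fibroblasts (MEFs, connective tissue cells grown from E13.5 embryos) that lack Trex1 but carry STING were compared with wild-type MEFs. The comparison takes the 3 TKO arrays against the 3 WT arrays, paired by treatment, which is 6 of the 12 arrays of the series. TKO cells are Sting +/+ Trex1 -/- and WT cells Sting +/+ Trex1 +/+. Beside them stand STKO cells (Sting -/- Trex1 -/-) and SKO cells (Sting -/- Trex1 +/+), in which the same Trex1 difference can be read without STING. All 4 genotypes have a C57BL6/129Sv background and were cultured in the same medium with serum. Cells of every genotype received vehicle (DMSO) or DMBA, a polycyclic hydrocarbon carcinogen, at 20 µg/ml for 24 or 48 h, and 1 bead array of biotin-labelled cRNA was made per genotype and treatment. How long the DMSO cells were cultured is not stated.

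TREX1 is an exonuclease that degrades DNA in the cytosol. DNA that escapes degradation is bound by cGAS, whose product cyclic GMP-AMP activates STING, and STING signals through TBK1 and IRF3 to type I interferon genes. Secreted interferon then acts through its receptor on interferon-stimulated genes, which encode antiviral enzymes, antigen presentation proteins and chemokines. Primary MEF cultures also differ in ways that have no link to a mutation: they keep the positional transcription factors of the tissue they came from, carry the sex of the embryo and hold variable numbers of other cells such as macrophages.

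Between 15662 and 16824 of 45281 probes were detected per array, and 18389 probes for 10142 named genes were tested. Levels are log2 normalized intensities, and a difference is TKO minus WT on that scale, averaged over the 3 treatments. Values after ± are limma's standard errors, and a probe or gene was called where its p, adjusted over every tested probe by the Benjamini-Hochberg method, was below 0.05. TKO and WT arrays of the same treatment correlated at 0.976 to 0.977 across probes. No separate embryos or cultures are named. With 1 array per genotype and treatment, the spread behind each p-value is how far genotype differences varied between treatments. It mixes differences in the response to DMBA with the noise of single arrays, which may be technical. Genotype cannot be told apart from the sex, tissue of origin or cell composition of its culture.

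The targeted transcript fell in TKO. The brighter Trex1 probe read 6.45, 6.91 and 6.50 in TKO under DMSO, 24 h and 48 h of DMBA, against 8.62, 9.11 and 9.46 in WT, a difference of -2.44 ± 0.20 (adjusted p = 7.9e-05). A second Trex1 probe was not well above background on any TKO array and read 7.74 to 8.56 in WT, at least 5.43-fold lower in TKO, while another was detected on none of the 12 arrays. Whether these probes lie in the deleted part of the gene is not stated. Sting1 differed by 0.07 ± 0.17 (adjusted p = 0.938), and the gene of the DNA sensor cGAS by -0.01 ± 0.24. Among 18 tested genes of cytosolic DNA sensing, Trex1 itself was the 1 gene called (5.56%, where 5.82% of all tested genes were called).

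TKO and WT differed at many genes. In TKO 241 genes were higher and 349 lower, 5.82% of the tested genes (2.38% and 3.44%). By probes these were 409 and 549, or 2.22% and 2.99%, and 5.21% together. The median difference over all genes was 0.00. Differences of 2-fold or more made up 149 of the higher and 229 of the lower genes. By fitted difference, which for probes at background in one genotype depends on the floor of the array (Sim2, Bcl11b, Eif2s3y, Gbp2b and Tm7sf3), the 10 largest rises were Plk1, Ccl5, Gpr149, Sim2, Cxcl10, Oasl1, Igfbp5, Bcl11b, Trim30a and St3gal6, and the 10 largest falls Eif2s3y, Gbp2b, Rpl29, Epm2aip1, Serpina3n, Tm7sf3, Mfap5, Mmp12, Npy and Lyz2. Of these, Oasl1 and Trim30a belong to the interferon lists, Cxcl10 and Ccl5 to the chemokines, Sim2 to the patterning factors, Lyz2 to the macrophage markers and Eif2s3y to the sex-linked genes. Without the 24 h arrays 303 probes were called in place of 958, and without the 48 h arrays 405.

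**Figure D1:**
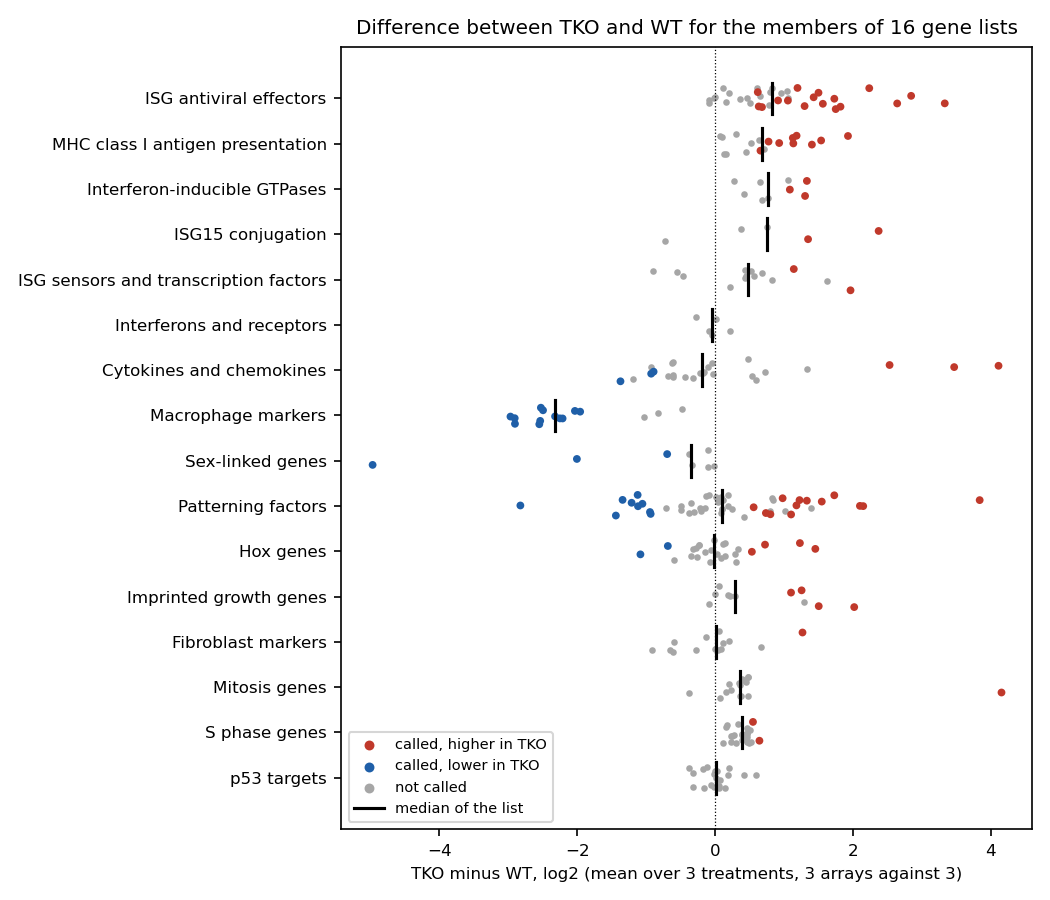
The x axis is the log2 difference TKO minus WT, averaged over 3 treatments with 3 arrays against 3, and each point is 1 tested gene of the list named on the y axis. Red points were called higher and blue points called lower in TKO, grey points were not called, and the black bar is the list's median. Called interferon genes all lie to the right of 0, called macrophage markers lie between -1.96 and -2.97, and patterning factors lie on both sides.

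The interferon genes stood higher in TKO. Of 119 listed genes 86 were tested, 33 were called higher and 0 lower, which is 38.4% of them against 5.54% of the other tested genes. The lists here and below were chosen with earlier results of these data known, so such shares are descriptions and not tests. The median difference of the 86 genes was 0.68, against 0.00 over all tested genes. Per treatment the median was 0.24 under DMSO, 0.70 at 24 h and 1.12 at 48 h. On 38 of the 86 genes (44.2%) all 3 TKO arrays lay above all 3 WT arrays. Of all tested genes 5.09% showed that order. The arrays did not overlap on 31 of the 33 called interferon genes and on 476 of all 590 called genes. The number of calls rested on having both DMBA times: without the 24 h arrays 3 genes were called (Trim30a, Isg15 and Oas1g), without the 48 h arrays 5 (Trim30a, Oas1g, Irf7, Nlrc5 and H2-K1), and without the DMSO arrays 36. The median of all 86 tested interferon genes in those fits was 0.69, 0.49 and 0.91.

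Antiviral effectors were the longest of the interferon lists, and 17 of their 35 tested genes rose (48.6%), where 2.38% of all tested genes were called higher. Isg15, a ubiquitin-like protein conjugated to other proteins during the interferon response, read 11.90, 12.26 and 13.001 in TKO under DMSO, 24 h and 48 h, against 10.26, 9.42 and 10.35 in WT. Every TKO value lay above every WT value, and the difference was 2.37 ± 0.34 (adjusted p = 0.00244). Trim30a, a TRIM family protein, read 9.91, 9.53 and 10.89 in TKO and 7.84, 6.35 and 7.60 in WT, a difference of 2.85 ± 0.32 (adjusted p = 0.000513). Oasl1, of the oligoadenylate synthetase family, read 8.43, 10.11 and 10.64 in TKO, against 7.26, 6.06 and 5.86 in WT, and its difference of 3.33 ± 0.51 was the largest in the interferon lists. The oligoadenylate synthetase Oas1g, whose products activate RNase L, rose by 1.57 ± 0.19, with 10.06 to 10.97 in TKO and 8.74 to 9.15 in WT. Its relatives Oas2 and Oasl2 (1.73) rose too, and Oas1a was not well above background on any WT array and at least 1.1-fold higher in TKO.

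For several effectors the arrays nearly coincided under DMSO and lay apart after DMBA. Rsad2, encoding the antiviral radical enzyme viperin, read 9.66, 11.32 and 12.33 in TKO and 9.53, 7.78 and 8.08 in WT, a difference of 2.64 ± 0.59 (adjusted p = 0.0285). Its neighbour in the genome Cmpk2, a mitochondrial nucleotide kinase, read 8.17, 9.15 and 10.35 in TKO and 8.16, 6.41 and 6.38 in WT. In both genes the DMBA arrays lay above the DMSO array in TKO and below it in WT. Ifit3 and Ifit2, which bind viral RNA or its partners, read 11.65 to 13.55 and 9.34 to 11.39 in TKO, against 10.26 to 11.30 and 8.71 to 9.20 in WT. Mx2, a dynamin-like GTPase, differed by 1.82 and Rtp4 by 1.30. Members without a call included the membrane protein Ifitm3 (0.15 ± 0.16), bright in both genotypes at 14.67 to 15.06 in TKO and 14.55 to 15.11 in WT, and Bst2 (1.06 ± 0.37, adjusted p = 0.175).

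The growth of these differences after DMBA was tested as the TKO minus WT difference over both DMBA times minus that under DMSO. The comparison was added after the data were seen. It called 0 of 18389 probes with limma (percent called 0), with 780 at an unadjusted p under 0.05, in a fit with 3 residual degrees of freedom. Rsad2 stood at 3.76 ± 0.38 and Oasl1 at 3.25 ± 0.35 (both adjusted p = 0.139), and Cxcl10 at 4.11 ± 0.59 (adjusted p = 0.414). Of the 86 interferon genes 80 had a larger difference after DMBA, with a median of 0.58, against 4864 of all 10142 tested genes with a median of -0.01.

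Among regulators and conjugation enzymes of the same response, 2 of 14 sensors and transcription factors (14.3%) and 2 of 5 genes of ISG15 conjugation (40%) were called higher. Of all tested genes 2.38% were called higher. Irf7, the transcription factor that amplifies interferon production, read 8.80, 9.05 and 10.02 in TKO, against 7.54, 6.97 and 7.46 in WT, a difference of 1.97 ± 0.26 (adjusted p = 0.00161). Dhx58, encoding the RNA helicase LGP2, rose by 1.14 ± 0.24, although 2 of its 3 tested probes were not called. The other 12 sensors and transcription factors were not called, among them Ifih1 (1.63 ± 0.42, adjusted p = 0.059), Irf9 (0.57 ± 0.23) and Stat2 (0.52 ± 0.24). Usp18, the protease that removes ISG15, rose by 1.35 ± 0.21 with both its probes called. Of 9 tested interferon-inducible GTPases, which act on the vacuoles of intracellular pathogens, Gbp7 (1.33), Gbp2 (1.31) and Igtp (1.09) rose. The receptor chains and kinases tested from the list of interferons and receptors (Ifnar2, Ifngr1, Ifngr2, Jak1 and Tyk2) gave 0 calls with limma, at -0.27 to 0.22, and 0 had an unadjusted p under 0.05. Ifnb1 and Ifit1 had no probe among those tested.

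Antigen presentation through MHC class I had the largest share of calls among the interferon lists, with 9 of 18 tested genes higher in TKO (50%). Over all tested genes 2.38% were called higher. The median of the list was 0.68. Nlrc5, the transactivator of these genes, read 6.51, 7.71 and 8.62 in TKO and 5.32, 5.46 and 6.28 in WT, a difference of 1.93 ± 0.30 (adjusted p = 0.00394). The class I heavy chain gene H2-K1 read 9.87, 10.15 and 11.27 in TKO, against 9.04, 9.00 and 9.03 in WT (1.41 ± 0.22), and a second H2-K1 probe was not called at 0.29. The immunoproteasome subunits Psmb8 and Psmb9 rose by 1.14 and 1.13, and Tapbp, which loads peptide onto class I, by 0.66 with 1 of its 2 probes called. H2-D1, H2-T10, H2-Q6 and H2-Q7 rose by 0.78 to 1.54. Class I genes are close in sequence, so a probe may read more than 1 of them. B2m, the light chain, differed by 0.30 ± 0.12 without a call.

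**Figure D2:**
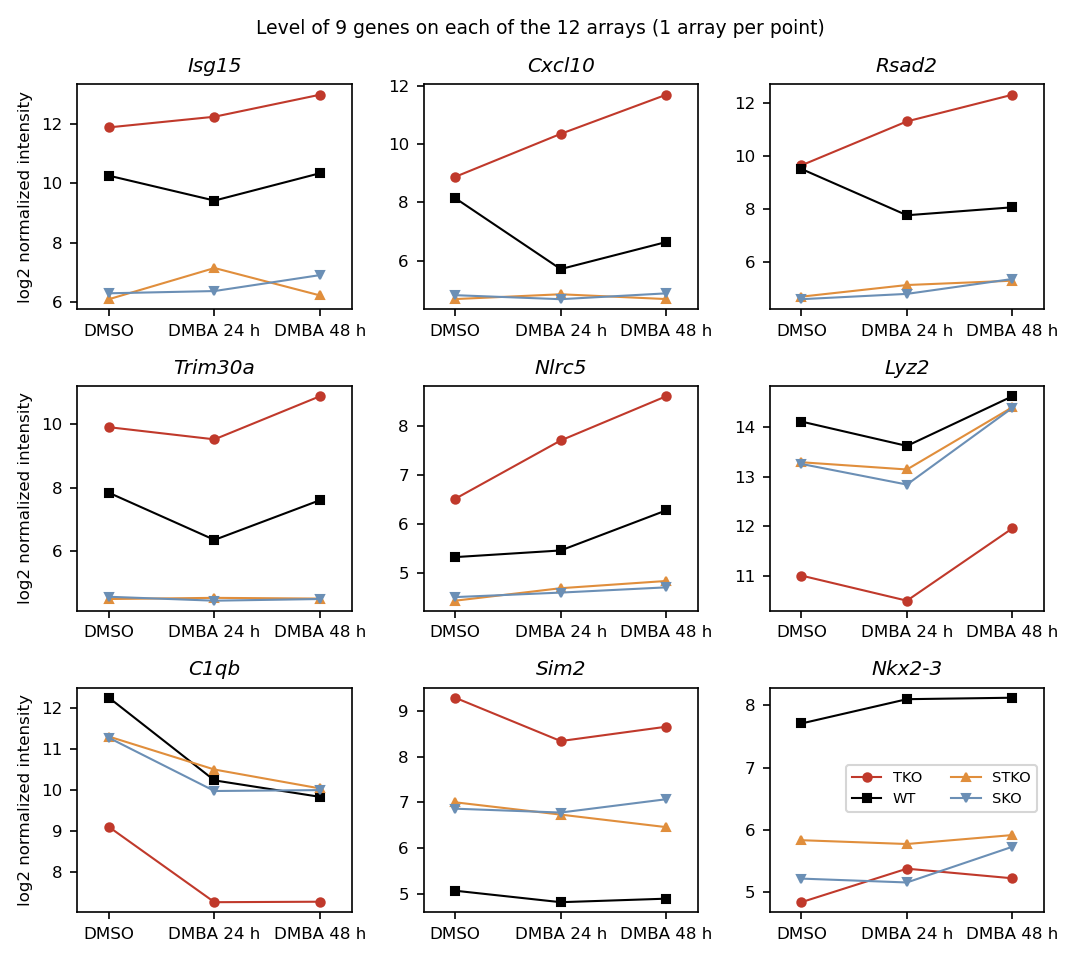
Each panel shows log2 normalized intensity on the y axis for 1 gene on the 12 arrays, 1 array per point, under DMSO and after 24 and 48 h of DMBA. Red circles are TKO, black squares WT, orange upward triangles STKO and blue downward triangles SKO. Isg15, Cxcl10, Rsad2, Trim30a and Nlrc5 are highest in TKO and lowest in STKO and SKO, Lyz2 and C1qb are lowest in TKO, Sim2 is highest in TKO and lowest in WT, and Nkx2-3 is highest in WT.

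STING was present in both TKO and WT, and the interferon genes read the lowest where it was absent. Averaged over the 86 genes, TKO read 9.27, 9.57 and 10.08 under DMSO, 24 h and 48 h and WT 9.00, 8.70 and 8.86. STKO read 7.30, 7.56 and 7.59, against 7.36, 7.38 and 7.70 in SKO. STKO minus SKO had a median of -0.01 over these genes and 0 calls with limma, with 2 at an unadjusted p under 0.05, where 0.168% of all tested genes were called. Of all 18389 tested probes 1312 had an unadjusted p under 0.05 in that pair. All 33 called interferon genes had TKO as the highest genotype under each of the 3 treatments, and for 0 of them was WT the lowest. The Trex1 difference itself was larger with STING than without it for 10 of the 86 by the interaction test, and smaller for 0. These were Trim30a (2.84 ± 0.45), Oasl1 (3.32), Isg15 (2.41), Irf7 (2.06), Nlrc5 (1.88), Parp14, Oas1g, Gbp7, H2-K1 and Rtp4 (1.29), and 3.4% of all tested genes were called in that test, 1.16% as larger and 2.24% as smaller (2.98% of probes). Many of these probes were not well above background in STKO and SKO, so the size of the interaction there is limited by the floor of the array. All 10 lost their call without the 24 h arrays and again without the 48 h arrays, 9 without a treatment term and 8 with no filter on dim probes.

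The 250 bases before the start of 4 of the higher genes are shown because interferon regulatory factors bind repeated GAAA elements. Capitals mark each match to GAAANNGAAA or, on the other strand, TTTCNNTTTC, overlapping matches joined. Sequences and coordinates are those of RefSeq on GRCm38.p6.
Isg15 promoter, chr4:156200819-156201068, minus strand: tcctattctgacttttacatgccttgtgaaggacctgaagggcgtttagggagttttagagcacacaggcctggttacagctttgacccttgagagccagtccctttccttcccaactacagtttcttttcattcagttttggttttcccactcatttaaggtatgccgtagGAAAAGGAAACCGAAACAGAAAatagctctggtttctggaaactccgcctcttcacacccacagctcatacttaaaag
Rsad2 promoter, chr12:26456453-26456702, minus strand: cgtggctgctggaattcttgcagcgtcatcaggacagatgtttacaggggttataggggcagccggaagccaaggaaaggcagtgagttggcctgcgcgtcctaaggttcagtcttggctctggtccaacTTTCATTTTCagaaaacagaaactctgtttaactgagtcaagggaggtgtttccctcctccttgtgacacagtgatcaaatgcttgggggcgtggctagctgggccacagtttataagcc
Oas1g promoter, chr5:120887614-120887863, minus strand: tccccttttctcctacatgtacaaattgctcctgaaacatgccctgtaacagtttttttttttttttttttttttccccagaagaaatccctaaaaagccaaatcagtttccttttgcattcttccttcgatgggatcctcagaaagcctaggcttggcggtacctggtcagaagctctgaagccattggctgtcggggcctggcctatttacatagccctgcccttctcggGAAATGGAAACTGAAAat
Cxcl10 promoter, chr5:92348890-92349139, minus strand: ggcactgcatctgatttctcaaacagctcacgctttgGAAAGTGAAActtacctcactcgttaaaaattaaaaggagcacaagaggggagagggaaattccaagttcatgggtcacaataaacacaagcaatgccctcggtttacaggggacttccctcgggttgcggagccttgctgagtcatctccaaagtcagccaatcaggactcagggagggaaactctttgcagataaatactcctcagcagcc
Isg15 held 3 overlapping matches, the nearest beginning 66 bases before the start, Oas1g 2, the nearest beginning 12 bases before it, and Rsad2 and Cxcl10 1 each. Of the 33 called interferon genes 25 had a window in the table and 9 of these held a match (36.0%). Among the 53 interferon genes that were not called 44 had a window and 12 a match (27.3%), and over all 27025 genes with a window the share was 3.46%. A match is a description of letters and was not tested for binding.

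Chemokines moved in both directions. Ccl5, which attracts T cells, read 10.29, 11.40 and 13.15 in TKO and 6.92, 7.42 and 8.16 in WT, a difference of 4.11 ± 0.57 (adjusted p = 0.00209). Cxcl10, the interferon-induced ligand of CXCR3, read 8.88, 10.35 and 11.69 in TKO, against 8.15, 5.71 and 6.64 in WT, and differed by 3.47 ± 0.66 (adjusted p = 0.0127). Neither gene's TKO and WT arrays overlapped. Cxcl14 read 10.09, 9.40 and 8.98 in TKO and 7.47, 6.42 and 6.98 in WT, but STKO and SKO lay near TKO at 8.94 to 9.62 and 8.94 to 9.26. In the same list of 26 tested genes Il18 fell by 0.93 and Ccl9 fell by 1.37, and Cxcl2 was called lower, being detected on 0 TKO arrays and 2 WT arrays. Il6 (-0.61 ± 0.40, adjusted p = 0.604) and Ccl2 (-0.32 ± 0.35, adjusted p = 0.819) were not called. Ccl2 read 9.17, 9.83 and 11.90 in TKO and 10.29, 10.17 and 11.39 in WT, so the genotypes changed order between treatments. The NF-kB response list had 1 call of 14 (7.14%, near the 5.82% of all tested genes). It was the acute phase gene Saa3, lower at 5.24 to 5.82 in TKO, against 6.22 to 8.28 in WT.

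Gbp2b, a guanylate-binding protein of the interferon-induced family that was not in the lists, went the other way. It was not well above background on any TKO or STKO array, and read 9.29, 9.16 and 9.06 in WT and 5.82 to 6.30 in SKO. The level was at least 10.9-fold lower in TKO than in WT (adjusted p = 9e-08). STKO minus SKO was called as well (adjusted p = 0.000726), which makes it 1 of 10 genes called in both pairs. It was named by the size of its fall.

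Among genes of culture identity, the macrophage markers had the largest share of calls. Of 15 tested markers 12 were lower in TKO, 80% of them, where 3.44% of all tested genes were called lower, and the median was -2.32. This list too was chosen with earlier results known, so its share is a description. Lyz2, the lysozyme of macrophages, read 11.01, 10.50 and 11.96 in TKO and 14.12, 13.63 and 14.63 in WT, a difference of -2.97 ± 0.15 (adjusted p = 3.95e-06), with 2 of its 3 probes called. The complement gene C1qb read 9.10, 7.25 and 7.27 in TKO, against 12.26, 10.24 and 9.83 in WT (-2.90 ± 0.24). Fcer1g and Tyrobp, adaptors of immune receptors, stood at -2.53 ± 0.12 and -2.55 ± 0.13. Csf1r, the receptor on which macrophages depend, fell by 1.96, with 1 of its 2 probes called, and Adgre1, the F4/80 antigen, fell by 2.54. The mannose receptor Mrc1 was not well above background on any TKO array and at least 3.44-fold lower there. Mmp12, the macrophage elastase, was among the 10 largest falls at 5.76, 6.37 and 9.02 in TKO and 8.54, 10.01 and 12.29 in WT.

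TKO was the genotype that stood apart for these markers. Their mean level was 7.40 to 8.00 on the TKO arrays and 9.34 to 10.53 on the WT arrays, with 9.39 to 10.13 in STKO and 9.18 to 10.06 in SKO. All 12 called markers read the lowest in TKO of the 4 genotypes under each of the 3 treatments, and WT was the highest for 4 of them. STKO minus SKO had a median of 0.15, 0 calls with limma and 0 unadjusted p-values under 0.05, and all 12 were called in the interaction test. Of all 590 genes called in TKO against WT, 312 were called in that test, which contains the same TKO minus WT difference. On 13 of the 15 markers all TKO arrays lay below all WT arrays, against 6.16% of all tested genes. Of the 12 called markers 11 were detected on at least 2 TKO arrays, so their transcripts were lower there, not missing. In bulk RNA, fewer macrophages and less of these RNAs per cell cannot be told apart. The markers moved in the same arrays as the interferon genes and in the opposite direction, and their part in the interferon difference was not tested. Fibroblast markers averaged 10.57 to 11.39 in TKO and 10.62 to 11.40 in WT, with a median difference of 0.02. They had 1 call of 14 (7.14%, near the 5.82% of all tested genes). This was Col1a2 (1.26 ± 0.28), which stood at 1.38 in STKO minus SKO without a call. Of 5 neural and glial markers Map2 and Stmn2 were higher (40%). Krt18 was higher of 7 epithelial markers (14.3%) and Vwf lower of 5 endothelial markers (20%). The skeletal muscle, smooth muscle, cartilage and bone, and adipocyte lists gave 0 calls with limma. In that order 2, 0, 1 and 2 genes had an unadjusted p under 0.05. Of 31 collagen and matrix genes 1 was higher, and Fbln2 and Thbs2 were lower (9.68%).

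**Figure D3:**
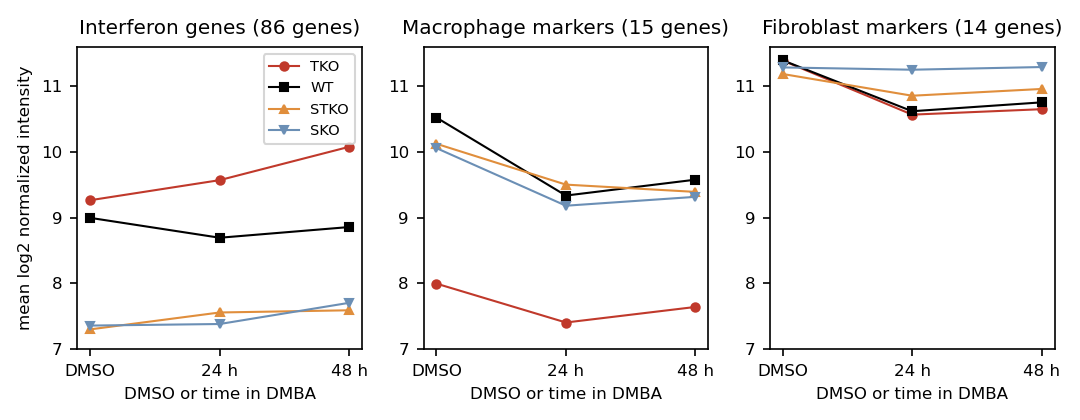
Mean log2 normalized intensity (y axis) of the tested members of 3 lists on each array, under DMSO and after 24 and 48 h of DMBA (x axis), with TKO as red circles, WT as black squares, STKO as orange upward triangles and SKO as blue downward triangles. The interferon genes order TKO above WT above both STING-deficient genotypes, the macrophage markers lie at 7.40 to 8.00 in TKO and above 9 elsewhere, and the fibroblast markers of TKO and WT nearly coincide.

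Of 8 tested sex-linked genes 3 were called, all lower in TKO (37.5%), where 3.44% of all tested genes were called lower. Eif2s3y, a Y-linked translation factor gene, was not well above background on any TKO, STKO or SKO array and read 9.62, 9.20 and 9.35 in WT, at least 12.7-fold lower in TKO (adjusted p = 3.25e-08). The Y-linked demethylase gene Kdm5d was likewise detected on the WT arrays alone and was at least 1.88-fold lower in TKO. Xist, the RNA of the inactive X chromosome, was detected on all 12 arrays and was lower in TKO at 9.37 to 10.23, against 10.01 to 10.92 in WT (-0.69 ± 0.13, 4 of 4 probes called). WT thus read both Xist and the Y-linked Eif2s3y and Kdm5d, while TKO, STKO and SKO read Xist alone of these. Whether WT cells came from embryos of both sexes is not stated. The Y-linked gene Uty was not called (-0.37 ± 0.30) and was detected on 1 TKO and 2 WT arrays, and the X-linked Eif2s3x, Kdm5c, Kdm6a and Ddx3x were not called.

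Patterning transcription factors, which mark the body region a fibroblast came from, differed in both directions. Of 49 tested factors 13 were higher and 9 lower in TKO, 44.9% of them against 5.82% of all tested genes, and the median was 0.10. The factors were listed with earlier results of these data known, so the share is a description and not a test of an excess. Sim2, a bHLH-PAS factor, read 9.29, 8.34 and 8.66 in TKO and was not well above background on any WT array, at least 8.55-fold higher in TKO (adjusted p = 3.95e-06). STKO and SKO lay between, at 6.46 to 7.00 and 6.78 to 7.07. The hindlimb factor Tbx4 read 9.00, 8.93 and 8.81 in TKO and 6.15, 7.12 and 7.16 in WT (2.10 ± 0.21). Tfap2a was at least 3.51-fold higher in TKO, and Tfap2b, Irx2, Irx3, Irx5, Foxc1, Gata3, Alx4, Lhx9, Msx1 and Twist2 rose as well. Nkx2-3, a homeobox factor of gut and spleen mesenchyme, was not well above background on any TKO array, read 7.71, 8.10 and 8.12 in WT and was at least 4.78-fold lower in TKO. Shox2, a limb factor, fell by 1.12 and Gata2 fell by 1.34, and Tbx18, Ebf2, Ebf3, Barx1, Lhx8 and Gata6 were lower as well.

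Hox genes, which encode position along the body and limb axes, gave 6 calls of 25 tested, 24% of them against 5.82% of all tested genes. This share carries the same limit as that of the patterning factors. Hoxd13, Hoxd12, Hoxd10 and Hoxb9 were higher in TKO, and Hoxd3 and Hoxb3 were lower. Other posterior members of the clusters were not called, with Hoxc10 at -0.60, Hoxd9 at -0.24, Hoxa11 at 0.31, Hoxa13 at 0.15 and Hoxc13 at 0.09. Hoxd10 read 9.09, 8.67 and 8.74 in TKO and 8.27, 7.95 and 8.11 in WT (0.73 ± 0.12), while Hoxd13 and Hoxd12 were detected on 2 TKO arrays each and on 0 WT arrays. Of the 28 called patterning and Hox genes, TKO lay at one end of the 4 genotypes for 10 and WT for 18 under every treatment, and 19 were called in the interaction test. Over all 590 called genes the same counts were 355, 327 and 312. Several reversed in the cells without STING: Tfap2a, Tbx4 and the limb signal Bmp4 rose in TKO and fell in STKO against SKO. Bmp4 read 10.59, 9.99 and 9.47 in TKO and 8.98, 7.83 and 7.68 in WT, with 8.02, 6.87 and 6.81 in STKO and 9.40, 9.30 and 8.91 in SKO.

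Of 11 tested imprinted growth genes 4 rose, 36.4% of them against 5.82% of all tested genes called. This list was also chosen with earlier results known. Dlk1, a Notch ligand relative of embryonic mesenchyme, read 13.999, 14.07 and 13.47 in TKO and 12.65, 12.58 and 11.79 in WT (1.51 ± 0.15), and the growth factor Igf2 read 14.98 to 15.03 in TKO and 13.34 to 14.14 in WT (1.26 ± 0.15). Mest (2.02) and Peg3 (1.10) rose as well. Igfbp5, which binds insulin-like growth factors, read 13.99, 12.46 and 11.68 in TKO, against 11.71, 9.04 and 8.11 in WT, a difference of 3.10 ± 0.41. STKO and SKO lay above both, at 12.97 to 14.26 and 12.89 to 14.36. A probe of the T-cell and skin factor Bcl11b was not well above background on any WT array and at least 6.42-fold higher in TKO (7.92 to 8.72), and STKO and SKO read 8.41 to 8.71 and 8.10 to 8.87.

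The genotypes at the ends of the range differed between the groups of genes. Over all tested genes TKO lay at one end of the 4 genotypes under each treatment for 11.5% and WT for 10.7%. Of the 241 genes higher in TKO the end was TKO for 148 and WT for 99, and of the 349 lower genes it was TKO for 207 and WT for 228, both counting genes where TKO and WT held opposite ends (23 and 99). In the pair without STING 17 genes were called, 0.168% of those tested (0.185% of probes), and the differences of the 2 pairs, which share no array, correlated at -0.04 across the 10142 genes. Genes are not independent replicates, so that value is a description.

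**Figure D4:**
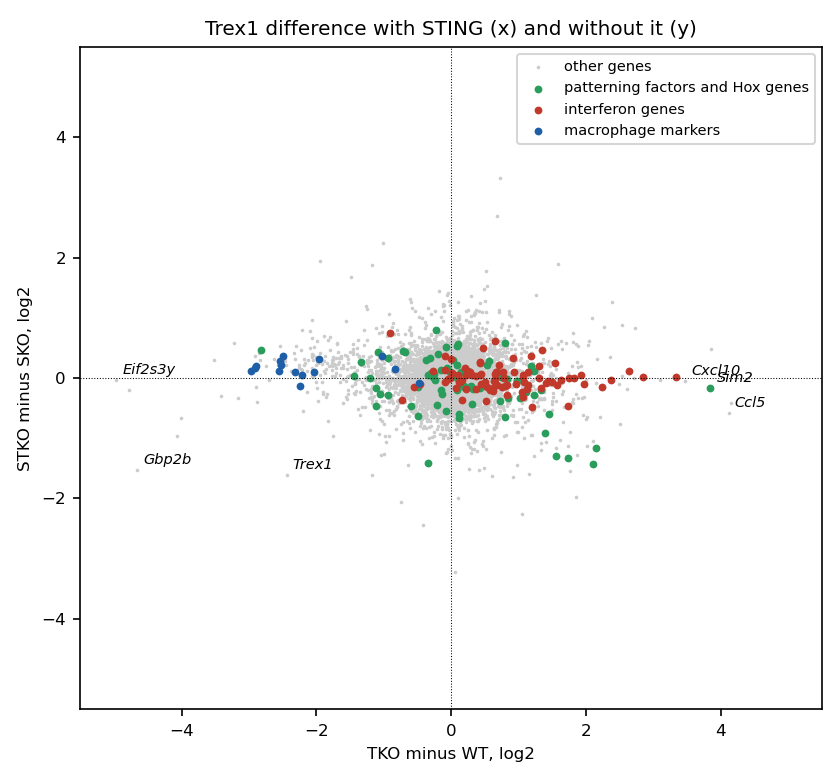
Each point is 1 tested gene, with the log2 difference TKO minus WT on the x axis and STKO minus SKO on the y axis. Interferon genes (red) spread to the right and macrophage markers (blue) to the left along the horizontal line at 0, and patterning and Hox genes (green) spread both ways. Trex1 and Gbp2b lie low on both axes.

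Lists of proliferation, DNA damage, oxidative stress and xenobiotic genes gave 5 calls together. Of 16 mitosis genes 13 and of 23 S phase genes 21 were higher in TKO under all 3 treatments, against 24.6% of all tested genes. The medians of the 2 lists were 0.37 and 0.40. The calls were Plk1 alone in mitosis (6.25%) and Rrm2 (0.64, 1 of 3 probes) and Rfc3 (0.55) in S phase (8.7%), against 5.82% of all tested genes, with 7 genes of each list at an unadjusted p under 0.05. Of all 18389 tested probes 2678 had an unadjusted p under 0.05 for TKO against WT. The single tested probe of Plk1, a mitotic kinase, read 10.98, 10.19 and 8.44 in TKO and 6.49, 5.51 and 5.18 in WT (4.14 ± 0.30, adjusted p = 4.27e-05), against 0.37 for the median mitosis gene. The limma fit called 0 of 21 p53 targets and 0 of 15 NRF2 genes, with 0 and 3 at an unadjusted p under 0.05. Cdkn1a, the p53-induced inhibitor of cyclin-dependent kinases, differed by 0.20 ± 0.22 with 12.68, 14.45 and 14.45 in TKO and 12.37, 14.23 and 14.40 in WT. Cyp1b1, a monooxygenase induced by the aryl hydrocarbon receptor that acts on DMBA, differed by -0.33 ± 0.14 (adjusted p = 0.315), with 11.14, 11.86 and 12.46 in TKO and 11.35, 12.18 and 12.94 in WT. Of 6 tested targets of that receptor 2 were called (33.3%) and 4 had an unadjusted p under 0.05. The called glucuronosyltransferase genes Ugt1a6a and Ugt1a6b were lower in TKO by -1.10 ± 0.16 and -1.55 ± 0.20, with WT above the 3 other genotypes.

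Other genes among the largest differences had no list in common. Serpina3n, a serine protease inhibitor, read 5.63, 7.76 and 7.40 in TKO and 8.74, 11.65 and 12.59 in WT, a difference of -4.07 ± 0.53. Npy, encoding neuropeptide Y, read 5.17, 6.06 and 6.87 in TKO and 8.28, 9.18 and 10.11 in WT, and the STING-deficient genotypes lay with TKO at 5.31 to 7.54. A Tm7sf3 probe was not well above background in TKO and at least 6.99-fold lower there, while STKO and SKO read 7.77 to 8.37 and 8.36 to 8.94, beside 8.42 to 8.60 in WT. Mfap5, a microfibril protein, fell by 3.41. The sialyltransferase St3gal6 rose by 2.72 ± 0.30. Gpr149 rose by 3.85 on 1 probe, and its other probe, detected on no TKO or WT array, differed by -0.04.

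The genes next to Trex1 were examined because a targeted locus keeps the chromosome segment of the cells it was made in. Of the 40 nearest tested genes, 20 on each side in the GRCm38.p6 gene order, 1 was called, Ccdc12, lower by -0.47 ± 0.11, a share of 2.5% against 5.82% of all tested genes. By single probes 3 of 63 were called, where 5.21% of all tested probes were. One of the 5 probes of Epm2aip1, the nineteenth tested gene to one side, read 5.57, 5.28 and 6.00 in TKO and 9.88, 10.11 and 10.24 in WT, a difference of -4.46 ± 0.14. The same probe read 5.44, 5.42 and 5.79 in STKO, against 10.15, 9.83 and 10.29 in SKO (-4.54 ± 0.14). Another Epm2aip1 probe was higher in TKO by 0.82, and the other 3 were not called, at 0.04 to 0.19. Both genotypes without Trex1 thus shared a low reading of 1 probe beside the locus. The probe taken for the gene, the brightest on average over all arrays, did not show it (0.11 ± 0.11). In WT and SKO, however, the low-reading probe was the brightest of the 5, averaging 10.07 and 10.09. The probe taken for the gene averaged 8.46 and 8.45 there.

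Farther along the same chromosome a second run of calls had another pattern. Between the 48th and the 76th tested gene to the other side, Rpl29, Wdr82, Pik3r4, Atp2c1, Parp3, Aste1, Mrpl3 and Trf had called probes lower in TKO, and Hemk1 and Abhd14a had probes higher. Nearer to Trex1 on that side, a probe of Mst1r at the 33rd gene was lower by -1.07. A probe of the ribosomal protein gene Rpl29 averaged 6.87 in TKO and 11.53 in WT, a difference of -4.66 ± 0.22, while the gene's brightest probe differed by -1.20. That probe averaged 6.98 in STKO and 6.93 in SKO, so WT alone was high. Wdr82 averaged 6.29 in TKO and 9.18 in WT, with 6.28 in STKO and 6.43 in SKO, and its 3 other tested probes were not called. These genes were picked out after their values were seen. A difference in the probed sequence and a difference in transcript level cannot be told apart on 1 probe. The chromosome that carries Trex1 ranked 14th of 20 by its share of called genes.

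**Figure D5:**
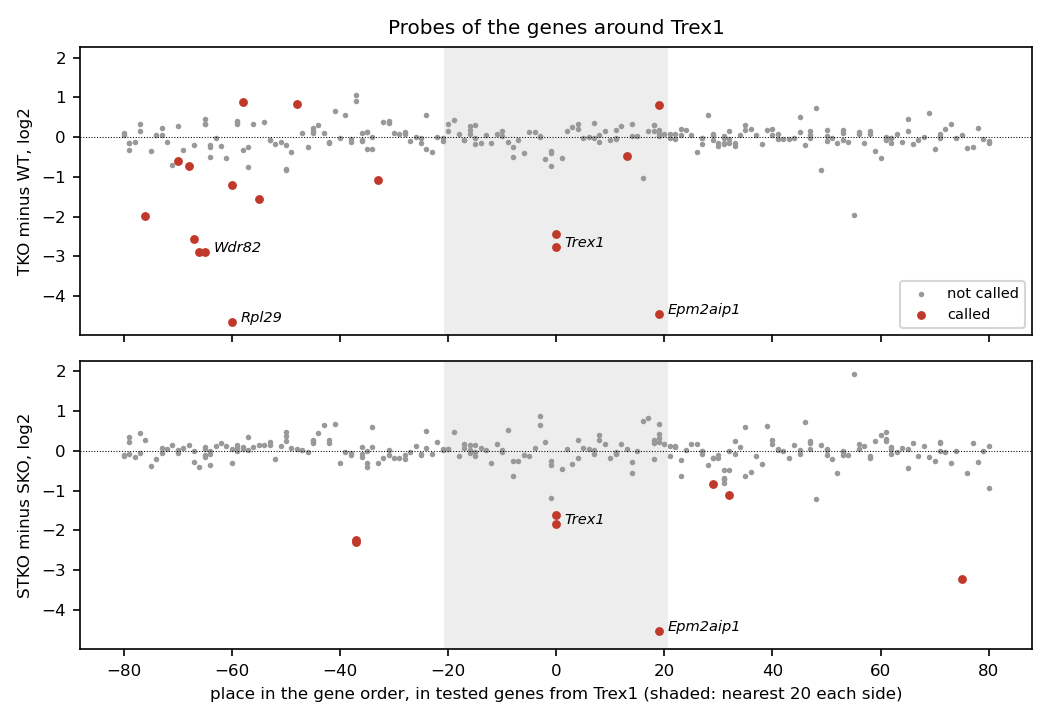
Each point is a tested probe, placed on the x axis by the order of its gene in tested genes from Trex1 and on the y axis by its log2 difference, TKO minus WT above and STKO minus SKO below. Red points were called, and the shaded band holds the nearest 20 genes on each side. The low Epm2aip1 probe appears in both panels, while the run of called probes near Rpl29 and Wdr82 appears in the upper panel alone.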

How the data were processed

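RNA of MEFs was hybridized as biotinylated cRNA on 12 arrays, 1 per genotype and treatment. The authors deposited a linear intensity for each probe and array without normalization, per the file headers. They also deposited a detection score that rises with the signal and was read as 1 minus a detection p, and a separate value table in log2 units that equals centred, quantile-normalized log2 signals to within 0.00125. No source used here names the software or the probe build.

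With neqc (limma 3.58.1 in R 4.3.3) intensities were corrected for background, given an offset of 16 and quantile normalized on the log2 scale. Testing required a detection p below 0.01 on 2 or more arrays. A gene is its brightest tested probe. List names were matched to the array's symbols without following synonyms. By Entrez ID, 34807 of 34885 probes with 1 symbol were found in RefSeq's table. A further 18 had several symbols and 10378 none, and stayed unnamed. A model with genotype and treatment over 12 arrays (lmFit, eBayes, 6 residual degrees of freedom) gave TKO minus WT, STKO minus SKO and their difference, the interaction test, 2-sided. "At least" folds set the brighter genotype's mean against the dimmer one's mean of, per array, the higher of its own value and the lowest detected signal. The code was tested on simulated data.

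Named genes are the 10 largest rises and falls among called probes with the same direction under all 3 treatments, up to 4 called members of each of 28 lists with the smallest p, both targeted genes, 9 readouts, and for the interaction the 5 largest values each way and the called interferon genes. Other genes were named with their values in view. The members and lists were chosen with earlier results of these data known. The number of arrays limits the precision. Alternatives covered background correction, scaling, the deposited value table, probe filters, the arrays in the fit, the treatment term and each treatment left out.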

Additional observations from a re-analysis of the deposited data

Results flagged for a closer look

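The Trex1 difference differed between cells with and without STING by the interaction test, (TKO minus WT) minus (STKO minus SKO), for the named genes that follow. It was positive for Ccl5 (4.70), Plk1 (4.56), Sim2 (4.01), Bmp4 (3.82) and Tbx4 (3.53). It was negative for Zfp330 (-6.36), Eif2s3y (-4.93), Rpl29 (-4.71), Cck (-3.89) and Mmp12 (-3.81). Among interferon genes it was positive for Oasl1 (3.32), Trim30a (2.84), Isg15 (2.41), Irf7 (2.06), Nlrc5 (1.88), Parp14 (1.68), Oas1g (1.67), Gbp7 (1.51), H2-K1 (1.49) and Rtp4 (1.29).

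Several of these values come from the pair without STING. The called Zfp330 probe averaged 10.58 in TKO, 11.27 in WT and 10.38 in STKO, against 4.71 in SKO, and the other Zfp330 probe differed by -0.25 in the same test. Cck had opposite differences of -1.95 with STING and 1.94 without it, neither called alone. For Eif2s3y and Rpl29 the WT arrays alone stood high.

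Values that rest on probes at background are limited by the floor of the array and are not exact sizes. They include Eif2s3y, which was not well above background in TKO, STKO and SKO, Zfp330, at background in SKO, and several of the interferon genes in STKO and SKO. Of the 20 values 12 were no longer called without the 24 h arrays, 13 without the 48 h arrays, 11 without a treatment term and 10 with no filter on dim probes. The 10 interferon genes were all among those lost without either DMBA time.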

How the results depend on the processing

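The 958 called probes became 341 without a treatment term, and 303 to 742 when the arrays of 1 treatment were left out in turn. The 34 of STKO against SKO became 60 with those 6 arrays alone, 17 without a treatment term and 9 to 74 with a treatment left out. The 548 of the interaction became 133 without a treatment term and 110 to 469 with a treatment left out. The 33 called interferon genes became 16 with no filter on dim probes (15 of them shared), 11 without a treatment term and 3 to 36 with a treatment left out, all higher in TKO. In the fit of the 6 TKO and WT arrays alone 22 were higher and Usp25 lower (-0.73). The median of all tested interferon genes, called or not, stayed between 0.46 and 0.91 under every alternative.

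Of 15 macrophage markers 7 were called without a treatment term and 12 under each other alternative. Their median was -1.99 without background correction and in the authors' deposited value table, -2.50 when detection was asked of all 3 arrays of a genotype, and -2.22 to -2.58 with a treatment left out. Of 69 named genes Ccl2 reversed, at 0.085 without the DMSO arrays. Other gene and list values changed their call or count in some alternatives, most often when the 24 or 48 h arrays were left out. The cause of these changes was not tested. Arrays were paired by treatment through the treatment term.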
